A study of Mus musculus with 10 samples.

Results

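Transcripts of 7 secreted signalling proteins, the BMP and GDF ligands Bmp2, Bmp4, Bmp5, Bmp6, Bmp7, Gdf6 and Gdf7, were followed in embryonic mouse cortex labelled Emx2 knockout or wild type. They were chosen by symbol as BMP family ligands, and all 7 were found among the 56748 gene identifiers of the count files. The comparison was between 5 libraries labelled Emx2 KO and 5 labelled WT, all of cortex at E12.5, a stage of early cortical neurogenesis. In the files they are ENSMUSG00000027358 (Bmp2, chromosome 2), ENSMUSG00000021835 (Bmp4, chromosome 14), ENSMUSG00000032179 (Bmp5, chromosome 9), ENSMUSG00000039004 (Bmp6, chromosome 13), ENSMUSG00000008999 (Bmp7, chromosome 2), ENSMUSG00000051279 (Gdf6, chromosome 4) and ENSMUSG00000037660 (Gdf7, chromosome 12). Emx2 is a homeobox transcription factor of the dorsal telencephalon. The labels give no allele, strain, sex or number of embryos per library, so every p-value rests on library-to-library spread alone, part of which may be technical.

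BMP and GDF ligands are made as precursors that are cut by proteases, pair up and are secreted. They bind type I and type II receptor kinases, which phosphorylate SMAD proteins that enter the nucleus and switch on genes such as those of the Id and Msx families. In the embryonic forebrain these ligands are known from the dorsal midline, where the roof plate, the choroid plexus and the cortical hem form, and from the adjoining meninges. By sequence Bmp2 and Bmp4 form 1 subfamily and Bmp5, Bmp6 and Bmp7 another, while Gdf6 and Gdf7 belong to neither.

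The libraries held 9720840 to 35674113 counts. They fell into 5 large ones (3 knockout, 2 wild type, at least 24856930 counts) and 5 small ones (2 knockout, 3 wild type, at most 14700549 counts). Transcripts assigned to Emx2 itself stood at 123 ± 21.1 CPM (read counts scaled to the library total) in the knockout and 185 ± 12.8 CPM in wild type (SD, n = 5 each), with no overlap between the groups. The log2 fold change was -0.59 ± 0.11 (SE, edgeR adjusted p = 0.00271), so Emx2 reads were lower in the libraries labelled knockout but not absent. The markers of cortical progenitors were present in every library, with a summed level of 3358 to 3543 CPM in wild type and 3811 to 4224 CPM in the knockout. Of 8 progenitor markers 6 were called higher in the knockout, as were 4 of 6 markers of cortical neurons, and their part in the results below was not tested. A number in the sample titles splits the libraries into codes 241022 (2 knockout, 2 wild type), 14922 (2 and 2) and 31022 (1 and 1), and the labels do not say what it stands for. Within each code all knockout libraries were of one size class and all wild-type libraries of the other. Within each size class the genotypes therefore shared no code. Fits within 1 class cannot tell genotype from title code, and fits within 1 code cannot tell genotype from size class.

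In wild-type cortex Bmp7 was by far the most abundant of the 7 ligands, and both GDF genes were close to undetected. Per kilobase of exon, the scale on which genes of different length can be compared, Bmp7 stood at 10.5 ± 1.01 CPM per kb in wild type (SD, n = 5). Bmp4 followed at 3.80 ± 0.829 CPM per kb, Bmp6 at 2.22 ± 0.437 and Bmp5 at 1.69 ± 0.183. Bmp2 reached 0.757 ± 0.164 CPM per kb and Gdf7 0.194 ± 0.120. The ranges of the wild-type libraries were separate between Bmp7 and Bmp4, between Bmp5 and Bmp2 and between Bmp2 and Gdf7, but those of Bmp4 and Bmp6 overlapped, as did those of Bmp6 and Bmp5. Bmp4 was nevertheless above Bmp6, and Bmp6 above Bmp5, in each of the 5 wild-type libraries. The exon lengths include bases shared with other genes, 1878 of 4025 for Bmp5, where reads may have gone uncounted. The place of Bmp5 in this order is therefore uncertain.

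In the Emx2 knockout 3 of the 7 ligands fell, Bmp5 deeply and Bmp7 and Bmp4 moderately, 0 rose, 2 did not pass the test and 2 had too few reads to be tested. All 5 tested ligands had a negative fold change. Of all 18163 genes tested, 9.33% were called lower and 12.9% higher (edgeR quasi-likelihood test, adjusted p under 0.05), or 22.2% in either direction. These shares depend on the scaling, with 1899 genes higher and 2245 lower under upper-quartile scaling in place of 2345 and 1694. The median log2 fold change of the 5 tested ligands was -0.70, and that of all genes tested was -0.01. In these bulk libraries fewer cells making a transcript and less transcript per cell cannot be told apart.

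**Figure D1:**
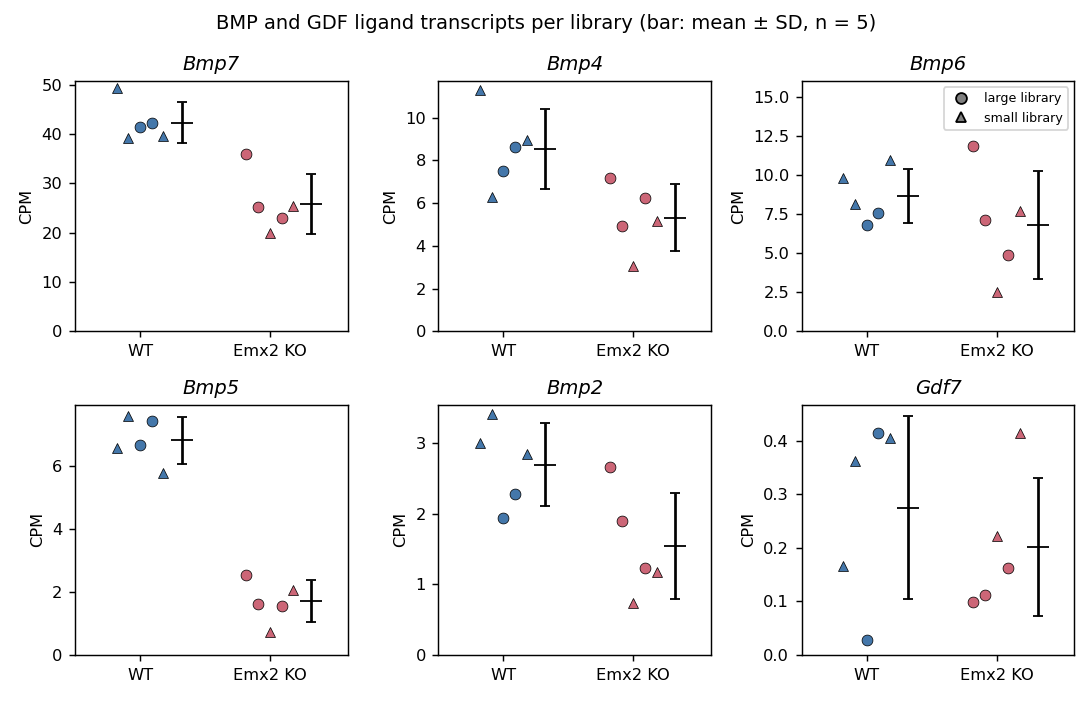
Level in CPM (vertical axis, from 0) of 6 ligands in each wild-type (WT, blue) and Emx2 knockout (red) library, with circles for large and triangles for small libraries and bars for the mean ± SD of 5 libraries. All 5 knockout libraries lie below all wild-type libraries for Bmp5 and Bmp7, while the groups overlap for Bmp4, Bmp6, Bmp2 and Gdf7.

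Bmp5, a ligand of the same subfamily as Bmp6 and Bmp7, showed the deepest loss of the tested ligands. The wild-type libraries held 6.57, 7.61, 6.69, 7.44 and 5.79 CPM, in the order of replicates 1 to 5. The knockout libraries held 2.56, 1.63, 0.741, 1.55 and 2.07 CPM, so every knockout library was under every wild-type one. Such a gap with the knockout lower was found for 7.04% of all genes tested. The knockout mean was 25.1% of the wild-type mean, a log2 fold change of -1.97 ± 0.23 (SE, edgeR adjusted p = 0.000124, 95% interval -2.48 to -1.46). It passed in the large libraries alone (-1.87) and in the small ones alone (-2.23), and without any 1 library it stayed between -2.17 and -1.81. The counts behind it are small, 10 to 78 reads in knockout and 57 to 251 in wild-type libraries. An antisense gene, Gm26903, shares 1878 of the 4025 exon bases of Bmp5 and held 34 reads against 934, summed over the 10 libraries. Without a stated strand setting, reads in these shared bases cannot be told apart, and how many went uncounted is not known.

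Bmp7, which is also made by the meninges, made up most of the ligand transcripts and fell to a lesser degree. It stood at 49.3, 39.3, 41.4, 42.2 and 39.6 CPM in wild-type replicates 1 to 5 and at 35.9, 25.1, 19.9, 22.9 and 25.5 CPM in knockout replicates 1 to 5. The groups did not overlap, and knockout replicate 1 came closest to the wild-type libraries. The log2 fold change was -0.70 ± 0.14 (SE, edgeR adjusted p = 0.00356, 95% interval -1.005 to -0.405). It passed in the small libraries alone (-0.91, adjusted p = 0.0246) and did not pass in the large ones alone (-0.58, edgeR adjusted p = 0.103). It did not pass with title code 241022 alone either (-0.53, adjusted p = 0.247), but did with code 14922 alone (-0.89, adjusted p = 0.0124).

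Bmp4, the ligand closest in sequence to Bmp2, was lower by a similar amount but only just passed. Wild-type replicates 1 to 5 held 11.3, 6.31, 7.49, 8.63 and 8.93 CPM. Knockout replicates 1 to 5 held 7.18, 4.94, 3.04, 6.25 and 5.18 CPM, and 4 of them lay under all wild-type libraries. This gave a log2 fold change of -0.66 ± 0.21 (SE, edgeR adjusted p = 0.0413, 95% interval -1.11 to -0.20). With 1 library left out it passed in 2 of 10 fits, those without knockout replicate 1 and without wild-type replicate 2, with adjusted p between 0.0192 and 0.102 and a fold change between -0.80 and -0.52. The direction was the same among large (-0.39) and small libraries (-1.10), and it passed in neither.

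Bmp2 had a fold change of similar size to those of Bmp7 and Bmp4, with a larger SE. Wild-type replicates 1 to 5 held 2.99, 3.41, 1.94, 2.28 and 2.84 CPM, and knockout replicates 2.65, 1.89, 0.741, 1.23 and 1.17 CPM. Knockout replicate 1 lay within the wild-type range and the other 4 below it. The log2 fold change of -0.73 ± 0.30 (SE, 95% interval -1.38 to -0.08) did not pass (edgeR adjusted p = 0.103). It passed without knockout replicate 1 (-1.03, edgeR adjusted p = 0.0188) and with the title code as a block (-0.86, adjusted p = 0.0152). Among large libraries alone the change was -0.12, among small ones -1.67, and the difference of 1.56 ± 0.49 between these values did not pass either (edgeR interaction, adjusted p = 0.386). That interaction was called for 0.0385% of all genes, and for 0 of the 5 tested ligands (edgeR interaction, adjusted p from 0.386 to 0.828). By the layout of the libraries it cannot be told apart from a difference between title code 14922 and the other codes. Bmp2 had 10 to 81 reads per library.

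Bmp6 varied widely among knockout libraries and did not pass. Wild-type replicates 1 to 5 held 9.81, 8.12, 6.77, 7.59 and 10.96 CPM, and knockout replicates 11.8, 7.13, 2.52, 4.90 and 7.67 CPM. The highest and the lowest of the 10 libraries were both knockout. The log2 fold change was -0.31 ± 0.32 (SE, edgeR adjusted p = 0.565), with a 95% interval of -1.02 to 0.41 that allows a drop as large as that of Bmp7. Among large libraries it was 0.16 and among small ones -0.91, and neither passed. Bmp6 shares 224 of its 3900 exon bases with the oppositely oriented gene Txndc5, which had 17619 reads against 1657 of Bmp6 and did not pass (log2 fold change -0.13). Without a stated strand setting, reads in these shared bases cannot be told apart.

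The GDF genes were at the limit of detection. Gdf7, a ligand known from the roof plate and the cortical hem, had 26 reads in all wild-type and 19 in all knockout libraries, 1 to 14 per library. Its level was 0.275 ± 0.171 CPM in wild type and 0.202 ± 0.129 CPM in the knockout (SD, n = 5 each), and the groups overlapped. It did not meet the filter on low counts, and without the filter it did not pass (log2 fold change -0.48 ± 0.63, edgeR adjusted p = 0.712). Gdf6 had 0 reads in the wild-type libraries, which allows up to 0.0289 CPM over their 103952885 counts, and 2 reads in the knockout, both in replicate 1. A difference in either gene was not detectable at this depth.

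**Figure D2:**
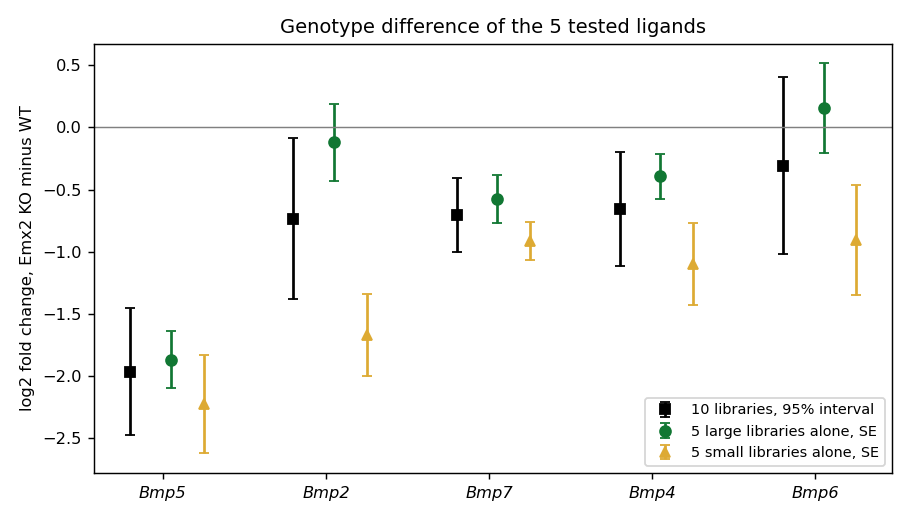
Log2 fold change (knockout minus wild type, vertical axis) of the 5 tested ligands over 10 libraries (squares, 95% interval), in the 5 large libraries (circles, SE) and in the 5 small libraries (triangles, SE). Bmp5 stays near -2 in all fits, whereas Bmp2 lies at -0.12 (large) and -1.67 (small).

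The drop of Bmp5 was larger than the difference in each other tested ligand of the same libraries. The log2 ratio of Bmp5 to Bmp7 reads went from -2.63 ± 0.21 in wild type to -3.97 ± 0.41 in the knockout, a difference of -1.34 (SD, n = 5 each, exact permutation test, two-sided, p = 0.00794). Against Bmp6 the ratio differed by -1.58, from -0.33 ± 0.40 to -1.91 ± 0.24. The ratio of Bmp4 to Bmp5 was higher in the knockout by 1.37 and that of Bmp2 to Bmp5 by 1.18. Each of these 4 gave the smallest p the test allows, 0.00794, and an adjusted p of 0.0198 over the 10 pairs (exact permutation test, n = 5 each). A ratio within a library does not depend on how libraries are scaled to each other.

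The other 6 pairs did not pass. The ratio of Bmp4 to Bmp7 differed by 0.03 between the genotypes (exact permutation test, two-sided, adjusted p = 0.889), and that of Bmp2 to Bmp7 by -0.16 (adjusted p = 0.617). The nearest to the threshold was Bmp2 to Bmp6 (-0.40, exact permutation test, adjusted p = 0.143). That the other 4 ligands changed by equal amounts is not shown by this.

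**Figure D3:**
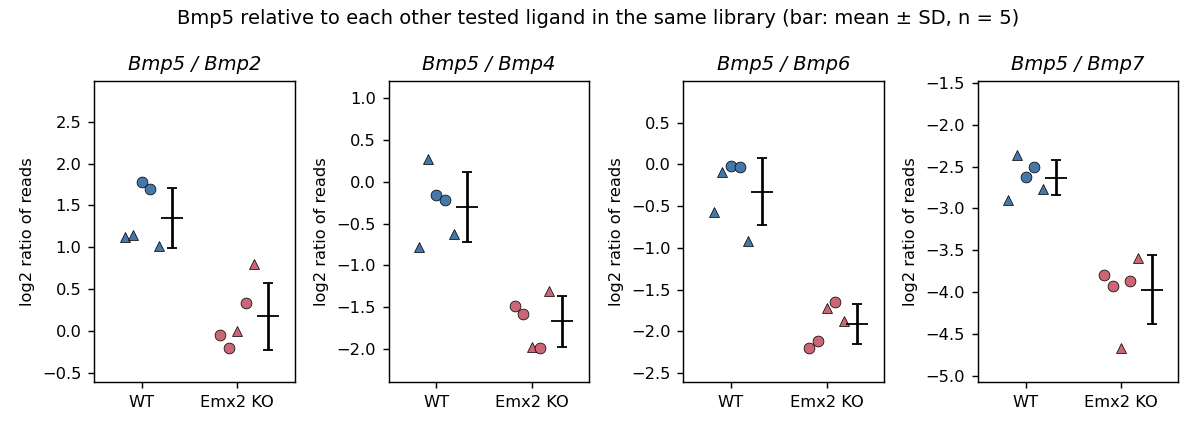
Log2 ratio of Bmp5 reads to those of Bmp2, Bmp4, Bmp6 and Bmp7 in the same library (vertical axis, each panel spanning the same number of log2 units) for wild-type (blue) and knockout (red) libraries, circles for large and triangles for small ones, bars for mean ± SD of 5. In every panel the 5 knockout libraries lie below the 5 wild-type libraries.

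The summed ligand level was lower in the knockout, and Bmp5 held a smaller share of it, given here with no test. The level summed over the 7 ligands was 19.2 ± 1.93 CPM per kb in wild type and 11.5 ± 3.29 CPM per kb in the knockout (SD, n = 5 each), with a lowest wild-type library of 17.6 and a highest knockout library of 16.6. Bmp5 made up 8.92% ± 1.46 of this sum in wild type and 3.58% ± 0.700 in the knockout. These values rest on the full exon length of Bmp5, including the bases shared with Gm26903. The share of Bmp7 was 55.0% ± 2.52 and 56.6% ± 5.31, that of Bmp4 19.6% ± 2.48 and 20.5% ± 3.28, and that of Bmp6 11.5% ± 1.90 and 14.3% ± 3.97. Per kilobase Bmp5 was above Bmp2 in 5 of 5 wild-type libraries but in 2 of 5 knockout libraries, where their levels were 0.425 ± 0.167 and 0.433 ± 0.210 CPM per kb.

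The start regions of Bmp4 and Bmp6 are shown beside that of Bmp5, whose ratio to each of them differed between the genotypes. Each sequence covers 250 bases before and 50 after the annotated start, from RefSeq on build GRCm38.p6, whose table held 4 of the 7 ligands. Capitals mark matches to 5 motifs searched on both strands, TAATTA (homeodomain core), CTTTGAT (TCF/LEF), GGCGCC (a GC-rich SMAD element), GATTA (OTX-type core) and CACGTG (E-box), and matches did not overlap here.
Bmp5 (GRCm38.p6, chr9:75775115-75775414, plus strand): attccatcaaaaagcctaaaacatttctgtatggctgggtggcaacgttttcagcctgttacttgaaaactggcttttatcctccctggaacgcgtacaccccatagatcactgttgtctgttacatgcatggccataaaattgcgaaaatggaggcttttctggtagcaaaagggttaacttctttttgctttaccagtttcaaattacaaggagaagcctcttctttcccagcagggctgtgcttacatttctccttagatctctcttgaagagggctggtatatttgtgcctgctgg
Bmp4 (GRCm38.p6, chr14:46390620-46390919, minus strand): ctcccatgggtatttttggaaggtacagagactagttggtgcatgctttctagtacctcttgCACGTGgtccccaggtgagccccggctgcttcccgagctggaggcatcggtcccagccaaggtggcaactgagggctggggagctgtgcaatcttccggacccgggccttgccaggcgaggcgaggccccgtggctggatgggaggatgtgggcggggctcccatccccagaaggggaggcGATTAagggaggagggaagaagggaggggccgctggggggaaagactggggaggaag
Bmp6 (GRCm38.p6, chr13:38345466-38345765, plus strand): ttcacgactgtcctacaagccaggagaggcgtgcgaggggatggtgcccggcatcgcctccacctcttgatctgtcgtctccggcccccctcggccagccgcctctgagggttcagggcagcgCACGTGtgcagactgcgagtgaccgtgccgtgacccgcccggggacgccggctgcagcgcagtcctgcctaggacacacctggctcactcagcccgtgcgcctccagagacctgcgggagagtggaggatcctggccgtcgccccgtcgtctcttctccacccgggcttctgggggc
The Bmp5 region was 43.3% GC, and 18.2% of the 32851 promoters in the table had this GC content or less. The Bmp4 region was 64.0% GC and the Bmp6 region 69.3%, against a median of 52.7%. CpG dinucleotides numbered 4 in Bmp5, 12 in Bmp4 and 27 in Bmp6, with a median of 7 over all promoters. The E-box letters occur in Bmp4 and Bmp6 and in 7.15% of all promoters, and GATTA occurs in Bmp4 and in 22.0% of all. None of the letters searched is in the Bmp5 window. TAATTA (5.29% of promoters), CTTTGAT (3.73%) and GGCGCC (11.9%) are in none of these 3 windows. These are descriptions of letters, not of binding.

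Markers of the cortical hem and of the choroid plexus fell in the same libraries, while most markers of meninges did not pass. The 12 markers of the cortical hem, the margin between cortex and choroid plexus, summed to 441 to 653 CPM in wild type and 138 to 308 CPM in the knockout, and 10 of 12 were lower, with a median log2 fold change of -1.65. The 12 choroid plexus markers summed to 260 to 317 CPM in wild type and 59.1 to 94.8 CPM in the knockout, and 9 were lower (median -2.46). Of all genes tested 9.33% were called lower. Both lists were chosen with earlier results of these data known, so these counts are descriptions and not a test. Most of the choroid plexus sum in the knockout, with a mean of 79.2 CPM, was Otx2, named after its values were seen. Otx2 stood at 61.3 ± 16.1 CPM in wild type and 59.2 ± 14.8 CPM in the knockout (SD, n = 5 each) and did not pass. The 12 markers of meninges and mesenchyme summed to 583 to 818 CPM and 598 to 829 CPM, with 3 lower, 0 higher and a median of -0.14. Of 8 endothelial markers 0 passed (226 to 303 CPM in wild type, 179 to 316 CPM in the knockout), and the same held for 8 blood and 7 microglia markers (edgeR). At unadjusted p under 0.05 edgeR gave 3 endothelial, 1 blood and 1 microglia marker, and by adjusted p DESeq2 called 1 microglia marker and limma-voom 0 of the 3 lists. None of the hem, choroid plexus, meningeal, endothelial, blood or microglia markers was at 0 in all libraries. The 7 surface epithelial markers, of which Krt5 had 0 reads, summed to at most 11.3 CPM, and 1 of 4 tested was lower. The part of these tissues in the ligand results was not tested.

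Within the knockout group the summed hem markers gave the same order of libraries as Bmp5, Bmp6 and Bmp7, and shared only the highest and the lowest library with Bmp2 and Bmp4. Bmp4 gave the same order as the summed endothelial and the summed blood markers. Knockout replicate 1 was the highest and replicate 3 the lowest of the 5 for Bmp2, Bmp4, Bmp5, Bmp6 and Bmp7, and also for the summed hem, endothelial and blood markers. Replicate 1 was the highest in 11 of the 14 ligands and marker sums ranked. The neuron markers ran the other way, highest in replicate 3 and lowest in replicate 1. The choroid plexus sum, mostly Otx2 in the knockout, and the surface epithelium sum were highest in replicate 2 and lowest in replicate 5. After removal of each genotype's mean the log2 levels of the 5 ligands correlated with r between 0.59 and 0.86 over 10 libraries (10 pairs, all sharing these libraries, given as a description). Without knockout replicates 1 and 3, left out after their values were seen, r ran from -0.46 to 0.54, so this relation rests on those 2 libraries. Over all 10 libraries the marker sum of highest r was hem for Bmp7 (0.87), Bmp6 (0.87) and Bmp4 (0.75). It was blood for Bmp2 (0.85) and endothelium for Bmp5 (0.71). Bmp6 also had r = 0.86 with blood, and Bmp5 had r = 0.60 with hem. These values carry no test.

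**Figure D4:**
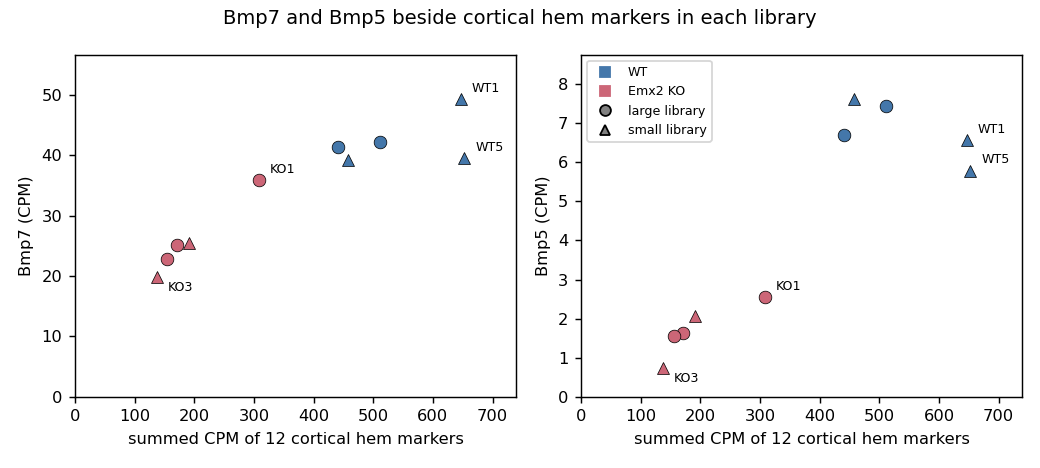
Level of Bmp7 and of Bmp5 in CPM (vertical axes) against the summed CPM of 12 cortical hem markers (horizontal axis) in each wild-type (blue) and knockout (red) library, circles for large and triangles for small libraries. Knockout libraries run from replicate 3 (KO3), lowest on all 3 measures, to replicate 1 (KO1), highest, and all lie below the wild-type libraries.

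Among 13350 protein-coding genes with a mean of at least 1 CPM, those most like each ligand within the genotypes (Pearson r of log2 CPM after removal of each genotype's mean) were of varied kinds. Nearest to Bmp5 were Slit3 (r = 0.94), the choroid plexus marker Clic6 (0.93) and AI467606 (0.93), over 10 libraries. The sum of the 12 choroid plexus markers, mostly Otx2 in the knockout, did not follow Bmp5 (r = -0.17). For Bmp6 they were Smad6, an inhibitory SMAD that BMP signals induce (0.97), the WNT antagonist gene Apcdd1 (0.97) and the transcriptional coactivator gene Wwtr1 (0.95). Bmp7 was most like Icam1 (0.98), Stom (0.97) and Ccnq (0.97), Bmp4 like Spg20 (0.99), Fam84b (0.98) and Imp4 (0.97), and Bmp2 like Tcf7 (0.96), Ltv1 (0.93) and Htatip2 (0.92). These values are the highest of many and carry no test. Of the 15 genes Clic6 (log2 fold change -2.81), Apcdd1 (-1.14) and Fam84b (-0.83) were lower in the knockout, and 12 did not pass.

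Other ligands of the TGF-beta superfamily moved in both directions. Of 26 listed genes 11 could be tested, of which 5 fell, 1 rose and 5 did not pass, with a median log2 fold change of -0.02. Of all genes tested 9.33% were called lower and 12.9% higher. Bmp3, a BMP that opposes osteogenic BMP signals, fell from 5.70 ± 1.71 to 2.21 ± 0.597 CPM (SD, n = 5 each, log2 fold change -1.37 ± 0.25, edgeR adjusted p = 0.00176). Inhbb, the activin beta B subunit, fell by 1.02 on the log2 scale and Gdf5, the closest relative of Gdf6 and Gdf7 among the tested ligands, changed by -0.99 ± 0.23. The others that fell were Inha (-0.34) and Tgfb2 (-0.32), named after their values were seen. Gdf11, a regulator of axial patterning and neurogenesis, rose from 47.6 ± 2.995 to 64.9 ± 5.45 CPM (0.44 ± 0.07, adjusted p = 0.000497).

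Receptor and co-receptor genes were called in both directions. Where 22.2% of all genes tested were called, 4 of 14 receptor and co-receptor genes fell, 2 rose and 8 did not pass (median -0.10). The lower count was 2 in each of the fits without knockout replicate 2, 3 or 4 or wild-type replicate 2, 3, 4 or 5. The higher count was 4 without knockout replicate 1 and 1 without knockout replicate 3 or 4. Bmpr1a, a main type I BMP receptor, went from 232 ± 11.3 to 204 ± 10.2 CPM (SD, n = 5 each, log2 fold change -0.18 ± 0.05, edgeR adjusted p = 0.0116). The repulsive guidance molecules, which act as BMP co-receptors, went opposite ways, Rgma with -0.20 ± 0.04 and Rgmb with 0.52 ± 0.05 (from 87.1 ± 4.10 to 124.8 ± 8.06 CPM, adjusted p = 3.12e-05). The type II receptor gene Acvr2b rose by 0.20 ± 0.06, a call that held under 2 of 3 other scalings. The other genes that fell, named after their values were seen, were the type I receptor gene Acvr1c (-0.73, from 3.35 ± 0.875 to 2.04 ± 0.371 CPM) and the type II receptor gene Bmpr2 (-0.19).

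Among 18 tested genes listed as BMP antagonists and modulators the share called was about that of all genes tested (22.2%). Of the 18, 3 fell, 1 rose and 14 did not pass (median 0.10). The higher count was 3 without knockout replicate 5 and with DESeq2, and 2 without knockout replicate 2, without wild-type replicate 1 and with limma-voom. Sostdc1, an inhibitor of BMP and WNT ligands, fell from 7.77 ± 1.21 to 2.57 ± 0.637 CPM (SD, n = 5 each, log2 fold change -1.59 ± 0.18, edgeR adjusted p = 8.10e-05). Vwc2, a secreted BMP antagonist of neural tissue, rose from 0.779 ± 0.212 to 2.82 ± 0.959 CPM (1.85 ± 0.29, adjusted p = 0.000757). Twsg1, a modulator of chordin and BMP, fell slightly (-0.18 ± 0.03). Fstl1 also fell (-0.27 ± 0.08), and passed in 2 of 10 fits without 1 library. The classical antagonist genes Nog (0.26) and Chrd (0.04), named after their values were seen, did not pass.

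Where 22.2% of all genes tested were called, 2 of 7 proteases that process BMP precursors or their antagonists fell and 5 did not pass. Those that fell were the proprotein convertase genes Pcsk6, from 19.2 ± 3.98 to 10.96 ± 2.09 CPM (SD, n = 5 each, log2 fold change -0.81 ± 0.16, edgeR adjusted p = 0.00338), and Pcsk5 (-0.36 ± 0.12), which passed in 2 of 10 fits without 1 library, those without wild-type replicate 2 or 4.

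**Figure D5:**
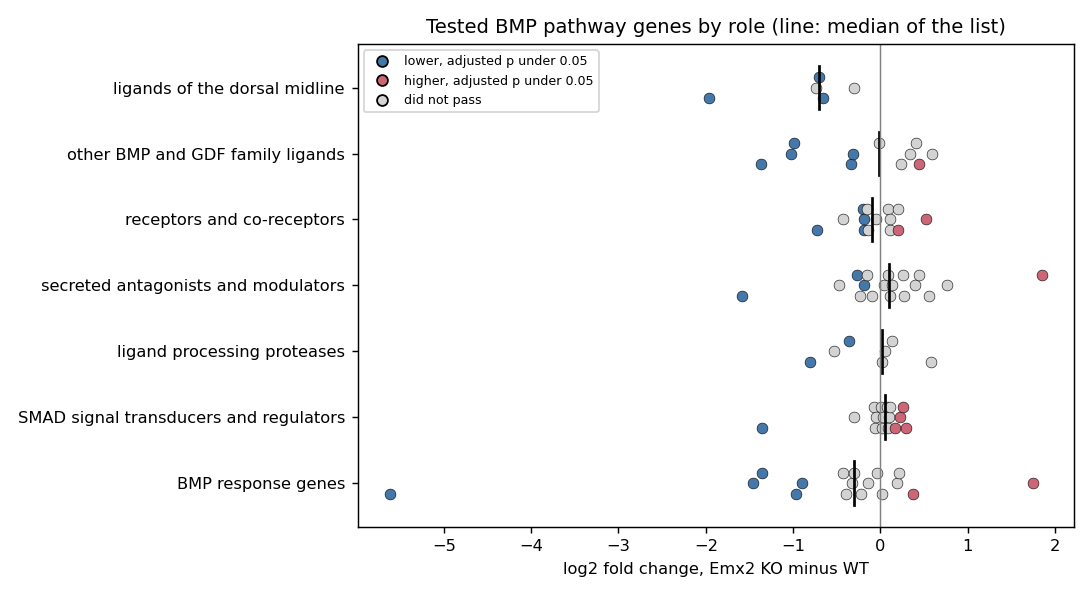
Log2 fold change (knockout minus wild type, horizontal axis) of each tested gene of the BMP pathway by role, blue for lower, red for higher and grey for not passed (edgeR, adjusted p under 0.05), with a line at each list's median. The medians lie at -0.70 for the 5 tested midline ligands, -0.30 for response genes and between -0.10 and 0.10 for the other lists.

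The SMAD list and the response genes gave a mixed picture. Of 16 SMAD proteins and their regulators 4 rose, 1 fell and 11 did not pass (median 0.06), where 22.2% of all genes tested were called. Smad1, which transmits BMP signals, rose from 52.7 ± 1.29 to 63.0 ± 3.21 CPM (SD, n = 5 each, log2 fold change 0.26 ± 0.05, edgeR adjusted p = 0.00154), and higher levels were also called for the ubiquitin ligase gene Smurf1 (0.29 ± 0.06) and the corepressor gene Ski (0.16 ± 0.03). Smad9, another SMAD of the BMP branch, fell from 3.07 ± 0.503 to 1.19 ± 0.259 CPM (-1.35 ± 0.20, adjusted p = 0.000423).

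Of 17 BMP response genes 5 fell, 2 rose and 10 did not pass (median -0.30), and 7 of the 17 are also in the SMAD, receptor or marker lists. Of all genes tested 22.2% were called in either direction. Hey1, which Notch signals induce as well, fell from 120 ± 6.36 to 64.8 ± 8.07 CPM (SD, n = 5 each, log2 fold change -0.89 ± 0.07, edgeR adjusted p = 1.16e-05), and Smad9 is given above. Ttr, a choroid plexus marker, fell by 5.61 on the log2 scale. Id2 rose from 60.3 ± 5.43 to 78.4 ± 7.60 CPM (0.37 ± 0.07, adjusted p = 0.00345). The remaining calls, named after their values were seen, were Lmx1a (-1.45) and Msx2 (-0.97), which fell, and Dlx5 (1.75), which rose and is also a gene of the GABAergic lineage. Id1 (-0.23), Id3 (-0.40), Id4 (-0.04), Msx1 (-0.43), Smad6 (-0.30), Smad7 (0.01) and Bambi (-0.15), also named after their values were seen, did not pass. Of the Id and Msx genes listed, Id2 and Msx2 were thus the ones called, in opposite directions.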

How the data were processed

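The values are raw read counts per gene, 1 deposited table per library. Per the submitters' processing notes the authors used featureCounts (1.6.3-p1) after STAR (2.7.8a) and bcl2fastq (2.20), naming the builds rn6 and GRCm39. The annotation and strand setting are not given in the sources used here. Libraries were grouped by their labels. Genes were filtered with filterByExpr (minimum count 10), scaled by TMM and tested with the quasi-likelihood test of edgeR 4.0.16 in R 4.3.3, with genotype as the term and Benjamini-Hochberg adjustment over 18163 genes. Scripts were tested on simulated data. CPM used total counts times TMM factors, and values per kb used exon lengths of GENCODE on GRCm38, matched by identifier. Ratios between ligands were log2 ratios of reads, each with 0.5 added, and compared with an exact permutation test. Alternatives were limma 3.58.1 (voom), DESeq2 1.42.0, other scalings and filters, blocks for title code or size class, and left-out libraries. In each pathway list the 4 genes with the smallest p among those called were named. The ligands and gene lists were chosen with earlier results of these data known.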

Additional observations from a re-analysis of the deposited data

Results flagged for a closer look

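In 5 of 54 groups of 5 libraries (27 genes, each genotype apart) 1 library stood away from the other 4, where chance gives about 1 group in 20. The figure given is the gap to the nearest library divided by the range of the group, against a critical value of 0.71. Bmp7 was highest in wild-type replicate 1, at 49.3 CPM against 42.2 CPM in the next library (0.714). Gdf5 was highest in knockout replicate 1, at 2.69 against 1.596 CPM (0.721). Gdf11 was lowest in knockout replicate 5, at 55.3 against 65.8 CPM (0.803). In wild-type replicate 5 Rgma stood at 177 against 162 CPM (0.736) and Pcsk5 at 13.3 against 9.97 CPM (0.721). The calls of Bmp7, Gdf5, Gdf11 and Rgma held in all 10 fits that left out 1 library, and that of Pcsk5 in 2 of 10.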

How the results depend on the processing

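Over 15 alternatives Bmp5 stayed lower and called in 15, Bmp7 in 13 and Bmp4 in 10, while Bmp2 was called in 2 and Bmp6 in 0. In the 5 large libraries alone Bmp7 (-0.58) and Bmp4 (-0.39) lost their calls, Bmp6 turned to 0.16 and 1 ligand was called lower. In the 5 small libraries alone 626 genes were called, Bmp4 (-1.10) lost its call and Bmp2 (-1.67) gained one. With title code 241022 alone 530 genes and 1 ligand were called, Bmp4 (-0.53) and Bmp7 (-0.53) lost their calls and Bmp6 turned to 0.087. With code 14922 alone 1710 genes were called and Bmp4 (-0.97) lost its call. Bmp4 (-0.65) also lost it with no filter on low counts, and Bmp2 (-0.86) gained one with the title code as a block. These subsets hold fewer libraries, and within each of them genotype goes with title code or with size class. The causes were not tested.

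With 1 library left out, 3072 to 3979 genes and 2 to 4 ligands were called. The log2 fold change ran from -1.03 to -0.58 for Bmp2, -0.80 to -0.52 for Bmp4, -2.17 to -1.81 for Bmp5, -0.61 to -0.11 for Bmp6 and -0.86 to -0.63 for Bmp7. The ratio of Bmp4 to Bmp7 ran from -0.083 to 0.12 and that of Bmp2 to Bmp4 from -0.31 to 0.0032, so both changed sign. The ratio of Bmp2 to Bmp6 ran from -0.50 to -0.26 and passed once. The 4 ratios with Bmp5 passed in all 10. The title code, which holds equal numbers of both genotypes, served as the block, since the replicate numbers do not pair libraries. The depth left Gdf6 and Gdf7 below the filter on low counts.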
